A study of Mus musculus with 6 samples.

Results

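The genes described here are 5 members of the MAGE family, Maged1, Maged2, Magee1, Mageh1 and Nsmce3. They are listed family genes expressed in brain, matched by GENCODE M21 symbol, and make up 5 of the 54532 gene identifiers counted in each library. Magee2 was left aside, and Ndn, Tro, Magel2 and Magef1, also detected in these brains, are not among the 5. The 5 thus leave out both family genes that passed the test, Magee2 and Ndn, which are given further below. RNA of whole C57BL/6J mouse brains was sequenced at postnatal day 14, with 1 library per sample and no statement in the labels of pooling. Per the labels, the 3 control mice were Mphosph8fl/+ Nestin-Cre+ and the 3 mutant mice (labelled Mphosph8∆n) were Mphosph8fl/fl Nestin-Cre+, so all 6 animals carried the Cre transgene and every control had a floxed allele on 1 chromosome. The study's text names only the transgene for these controls. Nestin-Cre acts in neuronal progenitors and their descendants, so microglia, which arise outside this lineage, are not targeted, and whole-brain RNA mixes all of these cells. The comparison asks which transcripts change when Mphosph8 is lost from the nervous system. By these labels the controls, whose titles mark them as HET, carry 1 floxed copy exposed to Cre and the mutants 2, so every fold change, that of Mphosph8 included, is measured against such controls and not against brains with both copies intact.

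MAGE proteins share a domain, the MAGE homology domain, through which many of them bind RING-type ubiquitin ligases. The type I genes (Magea and Mageb in mouse) are active mainly in testis, and the type II genes, to which these 5 belong, are active in many adult tissues including brain. Much of the family arose by retroposition, so several genes have no intron. MPP8, the product of Mphosph8, belongs to the HUSH complex, which represses chromatin marked by histone H3 lysine 9 trimethylation and is known to act on long intronless sequences.

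Of the 5 genes, Magee1, Mageh1 and Nsmce3 have 1 exon in their only annotated transcript, whereas the transcripts of Maged1 and Maged2 have up to 13 exons. Maged1 (ENSMUSG00000025151, 94535474 to 94542143, minus strand), Magee1 (ENSMUSG00000031227, 105120378 to 105123927, plus strand), Maged2 (ENSMUSG00000025268, 150806370 to 150814345, minus strand) and Mageh1 (ENSMUSG00000047238, 153036166 to 153037575, minus strand) lie on chromosome X of GRCm38. Nsmce3 (ENSMUSG00000070520, 64867052 to 64872997, minus strand) lies on chromosome 7. No exonic base of the 5 genes overlaps an exon of another annotated gene on either strand. Of the 50-base words of their transcripts, as long as the reads, 1.49% of those of Maged2 also occur in its relative Tro, 1 word of Nsmce3 occurs in Gm22030, and 0% of those of Maged1, Magee1 and Mageh1 occur elsewhere, so nearly all counts can be assigned to 1 gene.

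Promoter sequence played no part in the choice of the genes. RefSeq (GRCm38.p6) gives windows from 250 bases before to 50 bases after the start site for all 5 genes, 8 windows in all because Maged2 has several starts. The word GCATGCGC, which resembles the core of the site bound by the transcription factor NRF1, was searched on both strands, where its 2 orientations can overlap. It was in 4 of these 8 windows, 1 of Maged1, 1 of Nsmce3 and 2 overlapping windows of Maged2, and in 2.71% of all 32851 windows, but in none of Magee1 or Mageh1. The word was picked with these windows at hand, so the counts are a description. A window of each of these 3 genes is printed because they hold this word, 5′ to 3′ on the gene's strand, with each GCATGCGC in either orientation in capitals. They lie at chrX:94541976-94542275 (Maged1), chrX:150812930-150813229 (Maged2) and chr7:64872991-64873290 (Nsmce3), all on the minus strand.
Maged1: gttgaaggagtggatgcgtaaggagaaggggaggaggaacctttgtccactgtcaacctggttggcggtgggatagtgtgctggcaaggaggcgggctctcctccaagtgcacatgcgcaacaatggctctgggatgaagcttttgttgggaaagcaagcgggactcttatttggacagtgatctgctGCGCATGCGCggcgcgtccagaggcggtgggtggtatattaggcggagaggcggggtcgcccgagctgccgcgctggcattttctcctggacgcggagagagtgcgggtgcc
Maged2: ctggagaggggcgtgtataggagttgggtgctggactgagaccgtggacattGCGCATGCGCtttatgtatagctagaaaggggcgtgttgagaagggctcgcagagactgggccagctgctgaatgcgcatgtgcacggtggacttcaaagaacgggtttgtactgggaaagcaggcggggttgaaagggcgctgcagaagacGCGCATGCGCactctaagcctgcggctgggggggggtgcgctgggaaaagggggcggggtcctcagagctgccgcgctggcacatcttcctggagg
Nsmce3: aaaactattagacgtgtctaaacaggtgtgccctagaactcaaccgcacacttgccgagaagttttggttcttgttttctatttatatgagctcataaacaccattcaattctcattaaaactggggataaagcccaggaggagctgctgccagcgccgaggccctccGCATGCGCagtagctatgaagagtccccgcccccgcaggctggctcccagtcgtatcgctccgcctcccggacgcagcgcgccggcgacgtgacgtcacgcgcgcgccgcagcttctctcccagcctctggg
In Maged1 and Maged2 the word stands in both orientations, overlapping, from 62 bases before the start site in Maged1 and from 198 and again 46 bases before it in Maged2. In Nsmce3 it begins 82 bases before the start site. Maged1 and Maged2 also share the run GAGCTGCCGCGCTGGCA at or just after the start, 17 bases long, which on the gene's strand was in no window of any other gene. The GC box core GGGCGG, on either strand, was in 7 of the 8 windows, all but that of Maged1, and in 35.7% of all windows. Nsmce3 alone among the 5 held TGACGTCA, the cyclic AMP response element (1.79% of all windows). The TATA box core TATAAA, on either strand, was in 2 of the 8 windows, 1 of Maged2 and that of Nsmce3, and in 13.6% of all windows. Its first base stood at -168 from the start site in Maged2 and at -169 in Nsmce3. The share of C and G ran from 49.0% to 61.3% over the 8 windows of the 5 genes, 7 of them at 54.7% or more, against a median of 52.7% over all windows. GCATGCGC holds a CpG (C followed by G). The ratio of observed to expected CpG was 0.462 to 1.03 over the 8 windows, against a median of 0.384 over all windows. The part of this in the share of the word was not tested. The word matches are of letters only and say nothing about binding.

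The library totals ran from 12956880 to 15223424 counts, and 3 counts, the most that a count of 0 allows, correspond to 0.199 to 0.240 CPM (counts scaled by effective library size to a total of 1e6). The target, Mphosph8, had a control mean of 58.4 ± 11.3 CPM and a mutant mean of 28.9 ± 3.63 CPM (SD, n = 3). Its log2 fold change, -1.02 ± 0.12 (SE; edgeR adjusted p = 0.000157), comes from counts over the whole gene and not over the deleted exon alone. Control replicate 3 held 3641 counts of 4 Y-linked genes (Ddx3y, Eif2s3y, Kdm5d and Uty) and the other 5 libraries together 1. It held 27 counts of Xist, against 11130 to 17697 in the other 5. By these counts control replicate 3 was male and the other 5 animals female, so sex was not balanced between the groups. The study describes its mice as littermates matched for age and sex, which these counts do not bear out for sex. The imbalance bears on 4 of the genes because they are X-linked, so their values are also given without control replicate 3. Markers of neurons, astrocytes, oligodendrocytes, microglia, endothelium and red blood cells were all detected. Of these lists, that of the oligodendrocytes was lower in the mutants in 5 of 5 genes. Of these, 1, Mog, passed the test and 4 had groups that did not overlap, against 0.628% and 11.6% of all genes. In the other lists 0 genes passed, and Map2, Aldh1l1, Slc1a3 and P2ry12 were higher in the mutants without overlap. The summed level of the oligodendrocyte list was 19909 to 24031 CPM in controls and 15840 to 18274 CPM in mutants. The part of this shift in the values below was not tested. In whole-brain RNA, fewer cells of a type and less RNA per cell cannot be told apart.

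None of the 5 MAGE genes passed the test. All 5 were among the 16731 genes fitted, 0 had an adjusted p under 0.05 in edgeR and 0 an unadjusted p under 0.05 (6.51% of all genes), and DESeq2 and limma-voom also put 0 past an adjusted p of 0.05. Over all genes, 0.628% passed in edgeR, 0.532% as higher and 0.0956% as lower in the mutant, 0.359% also exceeded a 2-fold change, and DESeq2 put 0.723% past its threshold, so a count of 0 of 5 is near the background. In all 5 genes the control and mutant CPM overlapped. Over all genes the groups did not overlap for 11.6%, 6.23% with higher and 5.42% with lower mutant values, so 0 of 5 is near this background too. The 5 genes were chosen with earlier results known and leave out both family genes that passed. These counts of 0 therefore say nothing about the family. The log2 fold changes of the 5 genes ran from -0.11 to 0.04, with 4 below and 1 above 0. Their median was -0.07, against a median of -0.01 over all genes. The 95% interval lay within a 1.5-fold change in either direction for each of the 5 genes, and for 74.3% of all genes.

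Maged1, also called NRAGE or Dlxin-1, is an adaptor that binds the neurotrophin receptor p75 and the ubiquitin ligase Praja1. It had 437, 412 and 435 CPM in control replicates 1 to 3 and 406, 404 and 412 CPM in mutant replicates 1 to 3. Every mutant library was below the control mean, but the highest mutant and the lowest control library were level. The means were 428 ± 14.0 and 407 ± 4.47 CPM (SD, n = 3). This gave a log2 fold change of -0.07 ± 0.08 (SE; edgeR adjusted p = 0.953), whose 95% interval ran from 0.844 to 1.07 times the control level. It was at -0.06 on the log2 scale when control replicate 3 was left out. Maged1 was the steadiest of the genes: its within-group SD of log2 CPM was 0.035, below that of all but 1.17% of tested genes.

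Maged2, the closest relative of Maged1 here, is known for its part in salt transport by the kidney before birth. Its level was 74.3, 68.1 and 78.6 CPM in the controls and 74.7, 68.0 and 66.3 CPM in the mutants. Mutant replicate 1 lay within the control range and the other two at or just below its lower end. The log2 fold change was -0.08 ± 0.08 (SE, edgeR adjusted p 0.947), with an interval from 0.836 to 1.07 times control. Control replicate 3, the library with Y-linked counts, was the highest for Maged2, and without it Maged2 stood at -0.03 on the log2 scale (edgeR adjusted p = 0.990). Per kilobase of exonic sequence, Maged1 was at 4.34 ± 0.196 times the level of Maged2 in controls and 4.36 ± 0.297 times in mutants (SD, n = 3).

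**Figure D1:**
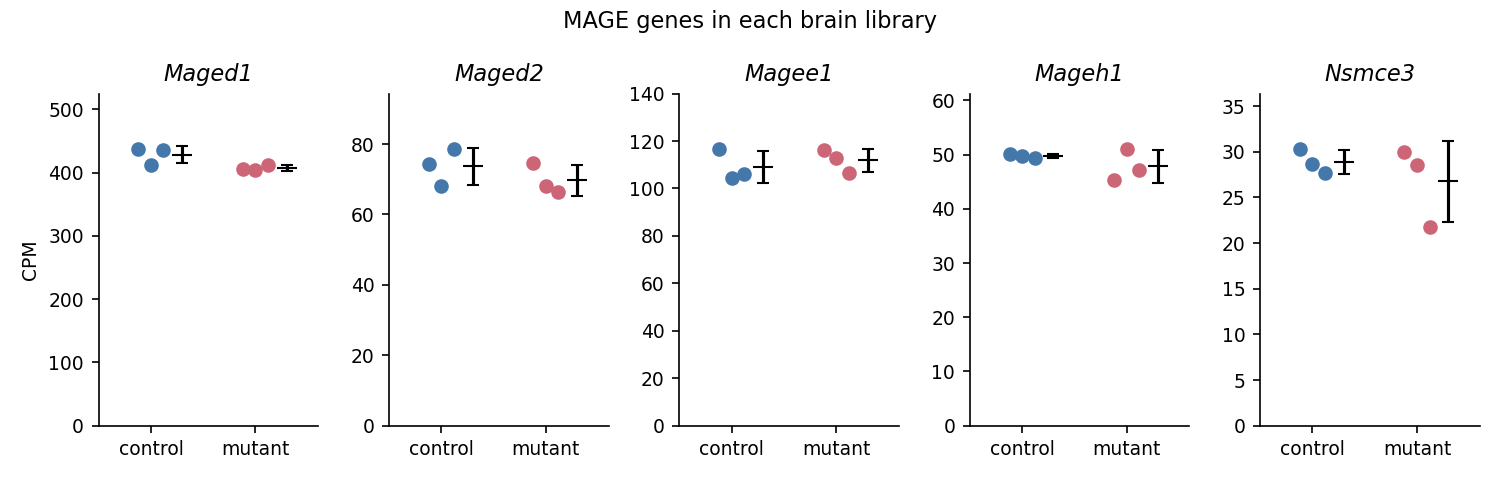
CPM of the 5 MAGE genes in each brain library, with a separate linear axis from 0 for each gene; points are the 3 control (blue) and 3 mutant (red) libraries in the order of their replicate numbers, and the black bar is the mean with its SD. The groups overlap for every gene, and the only library set apart is mutant replicate 3 for Nsmce3, at 21.7 CPM.

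Magee1 encodes DAMAGE, a protein that binds alpha-dystrobrevin, part of the dystrophin-associated complex. It had 117, 104 and 106 CPM in controls and 116, 113 and 106 CPM in mutants, so both groups spanned about the same range. It was the 1 gene of the 5 with a positive difference, at 0.04 ± 0.08 on the log2 scale (SE; edgeR adjusted p = 0.984) and with an interval from 0.914 to 1.15 times control. Without control replicate 3 the log2 fold change was 0.02.

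Mageh1 encodes a short MAGE protein, also called APR-1. The controls were close together at 50.2, 49.7 and 49.3 CPM, and the mutants were at 45.3, 51.1 and 47.1 CPM, on both sides of the controls. The log2 fold change was -0.06 ± 0.08 (SE, edgeR adjusted p 0.972) and the interval ran from 0.851 to 1.09 times control. Its coefficient of variation was 0.870% in controls, less than the 3.72% that counting alone gives at its mean of 722 counts, and 6.20% in mutants. Without control replicate 3 the log2 fold change stayed at -0.06.

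Nsmce3, formerly Mageg1 or Ndnl2, encodes a subunit of the SMC5/6 complex, which holds and repairs chromosomes, and partners the RING protein NSMCE1. Its level was 30.3, 28.7 and 27.7 CPM in controls and 30.0, 28.5 and 21.7 CPM in mutants. Mutant replicates 1 and 2 lay within the control range, and replicate 3, with 299 counts, lay below it. The log2 fold change of -0.11 ± 0.11 (SE, edgeR adjusted p 0.945), with an interval from 0.783 to 1.09 times control, was the most negative of the 5 genes. It rested on that library: without mutant replicate 3 the log2 fold change was 0.016, of opposite sign (edgeR adjusted p = 0.999). The coefficient of variation of Nsmce3 was 4.62% in controls, where counting alone gives 4.88%, and 16.4% in mutants, where it gives 5.33%.

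**Figure D2:**
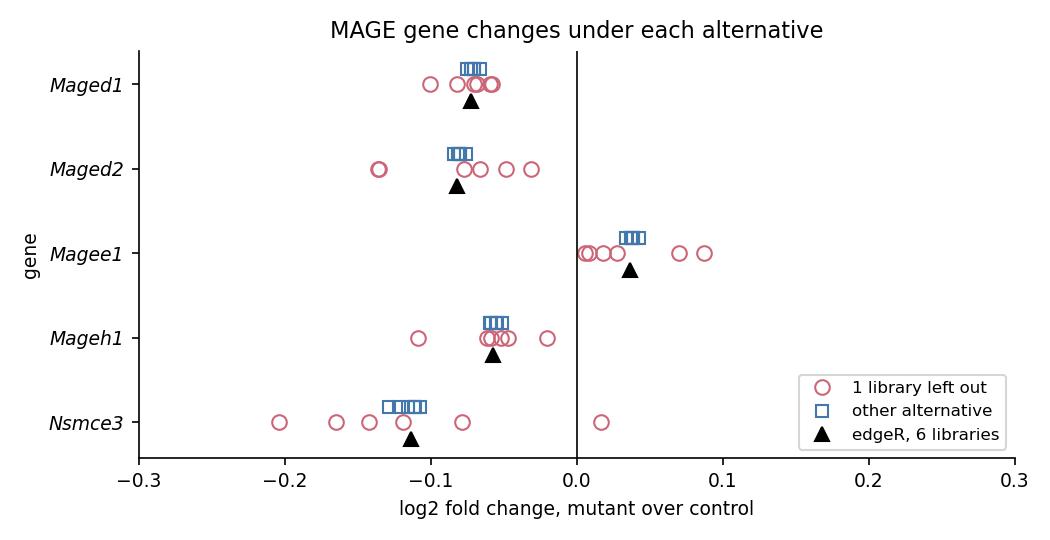
Log2 fold change of the 5 MAGE genes, mutant over control, with edgeR on 6 libraries (black triangles), with 1 library left out (red circles) and with the other alternatives (blue squares). All values lie between -0.20 and 0.087, and Nsmce3 is the only gene whose values fall on both sides of 0.

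Levels can be set side by side only per length, and on that scale the 5 genes spanned a wide range. Per kilobase of exonic sequence, Maged1 was at 98.4 ± 3.21 CPM in controls (SD, n = 3), Mageh1 at 35.3 ± 0.307, Magee1 at 30.7 ± 1.89, Maged2 at 22.8 ± 1.63 and Nsmce3 at 4.86 ± 0.224. The order was the same in mutants, at 93.6 ± 1.03, 33.9 ± 2.10, 31.5 ± 1.38, 21.5 ± 1.37 and 4.50 ± 0.740. Neighbours in this order did not overlap in either group, except that Magee1 and Mageh1 overlapped in the mutants. Among the genes tested, Maged1 stood above 98.2% in this level, Mageh1 above 92.4%, Magee1 above 91.4%, Maged2 above 87.2% and Nsmce3 above 50.2%. The place of Nsmce3 depends on its length, as GENCODE gives it 5946 exonic bases and RefSeq 1359. Its control CPM over the whole counted gene, divided by the RefSeq length, gave 21.3 CPM per kilobase. That value mixes the 2 annotations, since counts outside the RefSeq gene stay in it, and is not a level of the RefSeq transcript. Of the summed CPM of the 5 genes, Maged1 took 62.1% in controls and 61.4% in mutants, and the sum itself was 663 to 709 CPM in controls and 654 to 671 CPM in mutants.

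**Figure D3:**
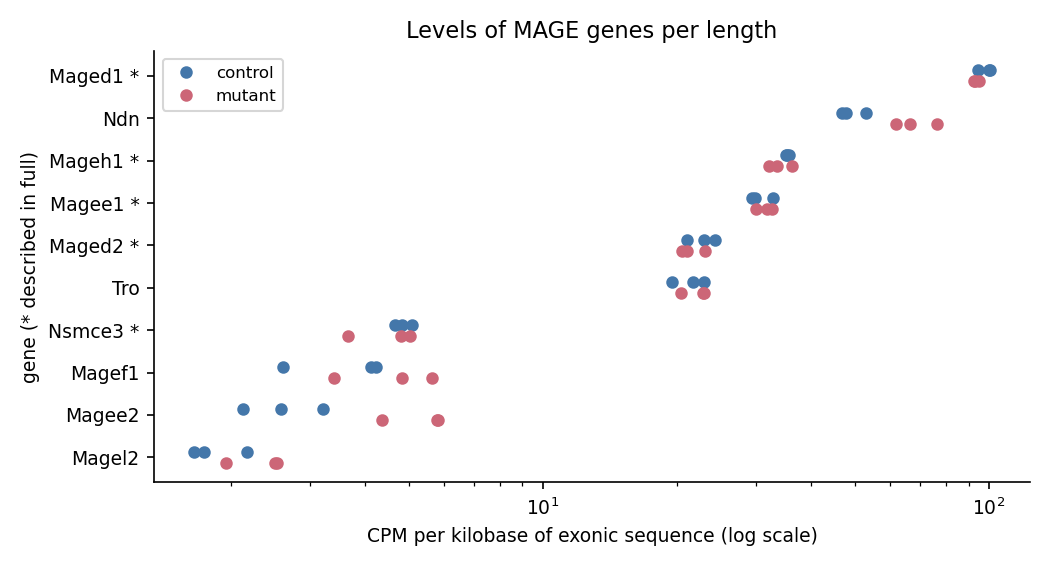
CPM per kilobase of exonic sequence (log scale) of the tested MAGE genes in each library, controls in blue and mutants in red; an asterisk marks the 5 genes described in full. Maged1 is the highest, at 92.8 to 101 CPM per kilobase, and Ndn and Magee2 are the genes whose mutant libraries all lie to the right of their controls.

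The files hold 29 further family genes, of which 5 were tested. Of these, 2, Magee2 and Ndn, rose in the mutant, 0 fell, and 3 did not pass. Over all genes 0.532% passed as higher and 0.0956% as lower. At an unadjusted p under 0.05 in edgeR the count was 3, Magel2 included, against 6.51% of all genes. The median log2 fold change of the 5 tested was 0.34, with all 5 above 0, although Tro was at -0.02 without control replicate 1. Whether this list differs from the 5 genes described first was not tested. Among the 24 family genes that were not tested, 19 had 0 counts in all 6 libraries and the other 5 had at most 9 counts over the 6 libraries together. These 24 are Magea and Mageb genes and pseudogenes. Most counts fell in a pair of them: Mageb3 had 1, 2 and 4 counts in controls and 0, 1 and 0 in mutants, and Mageb16-ps1 had 0, 1 and 1 in controls and 3, 2 and 2 in mutants, without overlap, both too few to be tested and both named after their values were seen.

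Magee2, which has 1 exon and lies 263 kb from Magee1 on chromosome X, had 7.45, 6.01 and 4.93 CPM in controls and 13.4, 13.5 and 10.1 CPM in mutants, with no overlap. On the log2 scale the change was 1.01 ± 0.17 (SE; edgeR adjusted p = 0.00438), and 0.87 (0.0390) without control replicate 3. Per kilobase of exonic sequence, the level of Magee2 was 0.0858 ± 0.0134 times that of Magee1 in controls and 0.169 ± 0.0203 times in mutants (SD, n = 3). Both genes are intronless. The interval for Magee1 ran from 0.914 to 1.15 times control, and whether the changes of the 2 genes differ was not tested.

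Ndn encodes necdin, a growth suppressor of neurons, and is expressed from the paternal allele in the Prader-Willi region. It rose from 195, 177 and 173 CPM in controls to 283, 246 and 229 CPM in mutants, by 0.47 ± 0.09 on the log2 scale (SE; edgeR adjusted p = 0.0156). The log2 fold change of Ndn was 0.45 without control replicate 2, 0.44 without control replicate 3 and 0.49 without mutant replicate 2, with edgeR adjusted p of 0.127, 0.116 and 0.0547, so the size stayed close while the call was lost. Its imprinted neighbour Magel2 was at 8.59 ± 1.29 CPM (control) and 10.8 ± 1.53 CPM (mutant; SD, n = 3), and the difference of 0.33 ± 0.15 on the log2 scale (SE) did not pass (edgeR adjusted p 0.726). Nsmce3 lies about 2485 kb from Magel2 on chromosome 7, and did not pass (-0.11). The X-linked gene Tro, which encodes trophinin and lies 149 kb from Maged2, was at 156 ± 13.1 and 161 ± 10.5 CPM, a log2 fold change of 0.04 ± 0.08 (edgeR adjusted p = 0.981). Magef1, annotated as a transcribed processed pseudogene in mouse, had 5.31 ± 1.30 and 6.73 ± 1.65 CPM and a log2 fold change of 0.34 ± 0.21 (edgeR adjusted p = 0.888).

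**Figure D4:**
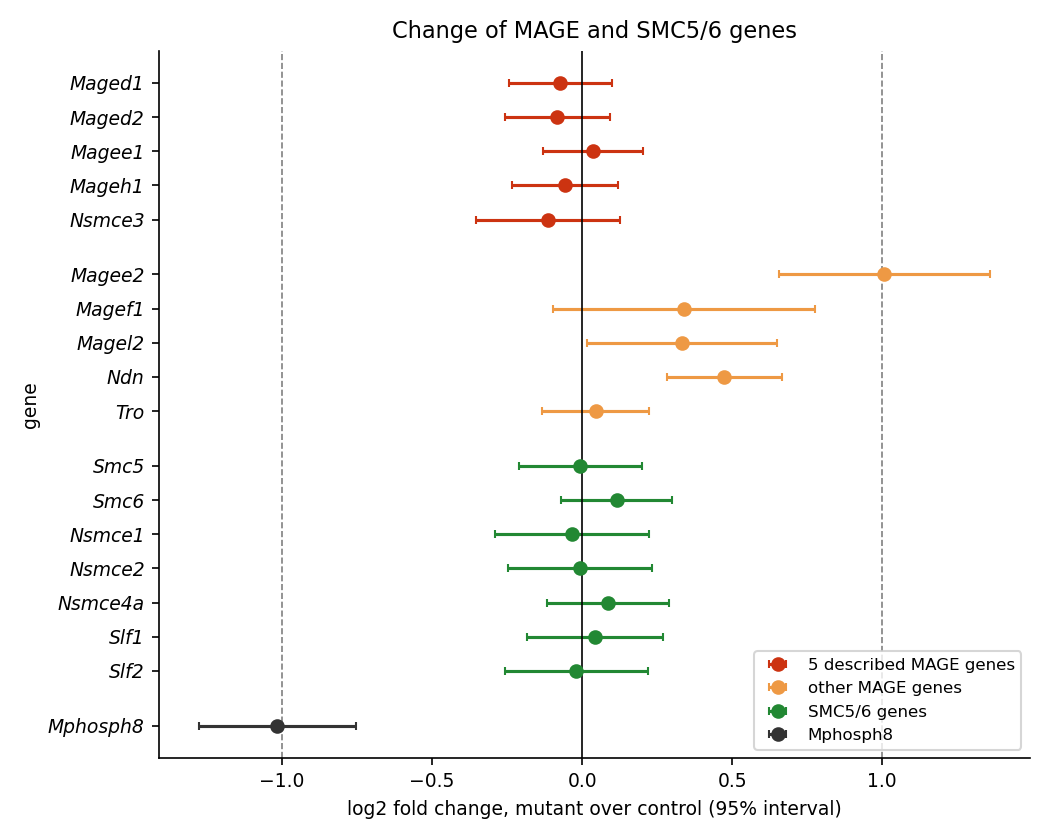
Log2 fold change (mutant over control) with its 95% interval from edgeR for the 5 described MAGE genes (red), the other tested MAGE genes (orange), the SMC5/6 genes (green) and Mphosph8 (black); dashed lines mark a 2-fold change either way. The intervals of the 5 genes all cross 0, and those of Magee2 and Ndn lie above it, from 0.65 to 1.36 and from 0.28 to 0.66. That of Magel2, which did not pass after adjustment, also lies above 0, from 0.015 to 0.65.

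Gene structure was set beside these values because the complex is known to act on intronless sequence. Among protein-coding genes with 1 exon, 323 were tested, and 5.26% passed as higher and 0% as lower, with a median log2 fold change of 0.03 and groups that did not overlap for 25.1%. Magee1, Mageh1 and Nsmce3, at 0.04, -0.06 and -0.11, gave 0 of 3, and Maged1 and Maged2, with introns, gave 0 of 2. The 5 genes leave out both family genes that passed, so these counts cannot answer whether gene structure matters. Of the other tested family genes, Magee2 (1.01), Ndn (0.47), Magef1 (0.34) and Magel2 (0.33) have 1 exon, and Tro (0.04) has introns. On chromosome X, 550 genes were tested, of which 0.727% passed as higher and 0% as lower, with a median log2 fold change of -0.02. Of the 22 X-linked protein-coding genes with 1 exon, 2 passed as higher and 0 as lower. These shares include MAGE genes reported above: Magee2 is 1 of these 2, and Magee2 and Ndn are both among the single-exon genes that passed.

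The genes of the SMC5/6 complex, in which Nsmce3 works, did not pass either. Of 8 listed genes 7 were tested, and 0 rose and 0 fell, in edgeR at an adjusted p under 0.05 and also at an unadjusted p under 0.05. The core ATPases were at 44.2 ± 4.93 and 44.1 ± 3.35 CPM for Smc5 (SD, n = 3) and at 58.6 ± 4.47 and 63.5 ± 4.88 CPM for Smc6, log2 fold changes of -0.01 ± 0.10 (SE) and 0.11 ± 0.09. Nsmce1, the RING partner of Nsmce3, was at 13.2 ± 1.43 and 12.9 ± 0.391 CPM, with -0.03 ± 0.12. The SUMO ligase gene Nsmce2 (-0.01), the bridging subunit gene Nsmce4a (0.09) and the loader genes Slf1 (0.04) and Slf2 (-0.02) had edgeR adjusted p from 0.953 to 0.997. Eid3, a germline relative of Nsmce4a, was not tested, having 21 counts in the 3 control libraries and 27 in the 3 mutant libraries. All 7 tested genes had overlapping groups, and their median was -0.01, as over all genes. With 0.628% of all genes past the test and 11.6% without overlap, counts of 0 of 7 are near the background.

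Known binding partners of MAGE proteins formed the other list. All 19 were tested, and 0 rose and 0 fell in edgeR, with 0 at an unadjusted p under 0.05. Their median log2 fold change was -0.03. The groups did not overlap for 5 of them, 2 with higher and 3 with lower mutant values, against 11.6% of all genes, and this count was not tested. The 4 with the smallest p were Dlx5, Pja1, Washc1 and Msx2. Dlx5, a homeobox factor bound by MAGED1, had 4.38 ± 0.726 CPM in controls and 3.50 ± 0.0654 CPM in mutants (SD, n = 3), or -0.32 ± 0.20 on the log2 scale (SE; edgeR adjusted p = 0.884). Msx2, another homeobox partner of MAGED1, had a log2 fold change of -0.27 ± 0.22 (0.924). Pja1, which encodes Praja1, was at 125 ± 5.01 and 115 ± 5.84 CPM, with -0.12 ± 0.08 (0.903). Washc1, a subunit of the WASH complex that MAGEL2 acts on, was at 33.3 ± 1.10 and 35.9 ± 1.57 CPM, with 0.11 ± 0.09 (0.922).

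The pattern of each gene over the 6 libraries was compared with that of all tested genes by the root mean square difference of log2 CPM, each gene centred on its own mean. Nearest to Maged1 were Srbd1, at 0.013, and the proton pump subunit gene Atp6v0e2, at 0.016, against a median of 0.139 over all genes. For Maged2 they were the peptidase gene Prep (0.023) and Pgm3 (0.026), for Magee1 Creg1 (0.014) and the sorting nexin gene Snx16 (0.019), for Mageh1 Rsl1d1 (0.0074) and Slc25a46 (0.015), and for Nsmce3 the plastin gene Pls1 (0.038) and the prodynorphin gene Pdyn (0.040). These 10 genes had edgeR adjusted p from 0.946 to 0.996. The MAGE genes were not each other's nearest: the closest pair among the 5 was Maged1 and Mageh1, at 0.062, where 930 tested genes lay closer to Maged1 than Mageh1 did. With 6 libraries and small changes, likeness of this kind is a description of these samples only.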

How the data were processed

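RNA of 6 whole mouse brains was measured. The deposited values are raw counts per Ensembl gene, made by the authors from polyA-enriched RNA and single reads of 50 bases with Trim Galore 0.5.0, Bowtie2 2.3.4.1 (removal of abundant sequences), STAR and featureCounts (Subread 1.6.2) on GRCm38. The strand setting is not given in the sources used here. Depth per library is given above. Counting alone gives a coefficient of variation of 1.27% for Maged1 to 5.33% for Nsmce3. The p-values weigh the difference between the groups against the spread between samples of a group.

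Symbols, places and exons came from GENCODE M21, which matched 54495 of the 54532 identifiers. Genotype was tested over all 6 libraries in edgeR (version 4.0.16 under R 4.3.3) with the quasi-likelihood fit after filterByExpr and TMM scaling, and Benjamini-Hochberg adjustment covered 16731 genes. A gene passed at an adjusted p under 0.05. SE and 95% intervals were derived from the F statistic, and log2 CPM used a prior count of 2. The steps were tested on simulated data. The alternatives tried were DESeq2 1.42.0, limma-voom (limma 3.58.1), RLE scaling, no filter, at least 1 CPM in 3 libraries, protein-coding genes only, each library left out, and the replicate number as a block, with a 1.5-fold limit also tried.

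The 5 genes and the lists were chosen with earlier results of these data known. Named were the 5 genes, Mphosph8, the other tested MAGE genes, the SMC5/6 list, the 4 partner genes with the smallest p, the 2 nearest genes in pattern per gene, and sex-linked genes. The markers Mog, Map2, Aldh1l1, Slc1a3 and P2ry12 were named after their values were seen. The 50-base words were searched in annotated transcripts only. The promoter words were picked with the windows at hand.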

Additional observations from a re-analysis of the deposited data

How the results depend on the processing

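No alternative put any of the 5 MAGE genes, the SMC5/6 genes or the partner genes past the threshold: each count was 0 under all 13 alternatives, and 0 of the 5 genes exceeded a 2-fold or a 1.5-fold change with an adjusted p under 0.05. Leaving out 1 library moved the log2 fold change of Maged1 between -0.10 and -0.058, of Maged2 between -0.14 and -0.031, of Magee1 between 0.0057 and 0.087, of Mageh1 between -0.11 and -0.021 and of Nsmce3 between -0.20 and 0.016, the last value without mutant replicate 3. Tro was at -0.020 without control replicate 1. The number of other MAGE genes past the test, 2, was 1 to 2 in these fits, the Ndn call being lost without control replicate 2 or 3 or mutant replicate 2 at log2 fold changes of 0.44 to 0.49. Over all genes 105 passed, 242 with no filter on low counts and 66 to 162 without 1 library: 69, 67 and 66 without control replicates 1, 2 and 3, and 162 and 69 without mutant replicates 1 and 3. The cause was not tested. Deviations from the group means correlated at 0.10, -0.05 and 0.08 between libraries of equal number, so the numbers were not taken as a pairing. The study calls these brains littermates, but the sample titles name no litter, and a pairing in another order was not tested. With the replicate block 124 genes passed, 0 of the 5 MAGE genes and 2 of the others, and Nsmce3 was at -0.12. Depth limits mainly the untested family genes and Eid3.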
